A study of Mus musculus with 6 samples.

Results

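Myelin is built from a small set of proteins and galactolipids, and 9 of their genes were followed here in sorted spinal cord cells: the lipid enzyme genes Ugt8a, Fa2h and Gal3st1, the structural genes Mbp, Cldn11, Cnp, Mag and Mal, and Aspa, which encodes an enzyme of mature oligodendrocytes. They were found by symbol in a table of 26264 genes, and all 9 were in it. RNA was sequenced in bulk from neural stem cells of mouse spinal cord, strain background C57BL6J, kept in culture with EGF and FGF2, and described in the series title as adult. Cells were sorted by a fluorescent reporter of Pdgfra into a GFP-positive group of 3 libraries, labelled with the genotype PDGFRaGFP/+, and a GFP-negative group of 3 libraries, labelled PDGFRaGFP/-. Sorted fraction and labelled genotype therefore cannot be told apart. The same numbers, 314, 315 and 316, appear in both groups, and these are replicates 1, 2 and 3. The labels do not state whether they are animals or cultures, so the p-values rest on the spread among these libraries, which may be technical.

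Oligodendrocytes wrap axons in sheets of membrane that are rich in galactosylceramide and sulfatide and are held together by a few abundant proteins. Precursors marked by Pdgfra turn these genes on in steps as they leave the cell cycle: Cnp is already expressed in precursors, the galactolipid enzymes follow in committed cells, and genes such as Mag, Mal and Aspa belong to the stages at which a myelin sheath forms. In mature oligodendrocytes Mbp is among the most abundant messenger RNAs.

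Most of the 9 genes were higher in GFP-positive cells, but only Cnp was abundant there. Of 7 members that passed the filter on low counts, 6 were higher and 1, Aspa, was lower at an adjusted p below 0.05 in edgeR's quasi-likelihood test. Over all 14554 tested genes, 26.1% were called higher, 29.2% lower and 55.4% in either direction. The median log2 fold change was 2.34 over the 7 tested members and -0.006 over all tested genes. A log2 fold change above 2 was reached by 5 of the 7, against 1.82% of the tested genes. Mag and Mal had too few counts for the filter. The 3 GFP-positive libraries lay wholly above or wholly below the 3 GFP-negative ones for all 9 members, 7 above and 2 below. Of the tested genes, which leave out Mag and Mal, 64.2% were separated in this way, and 31.3% with GFP-positive above.

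**Figure D1:**
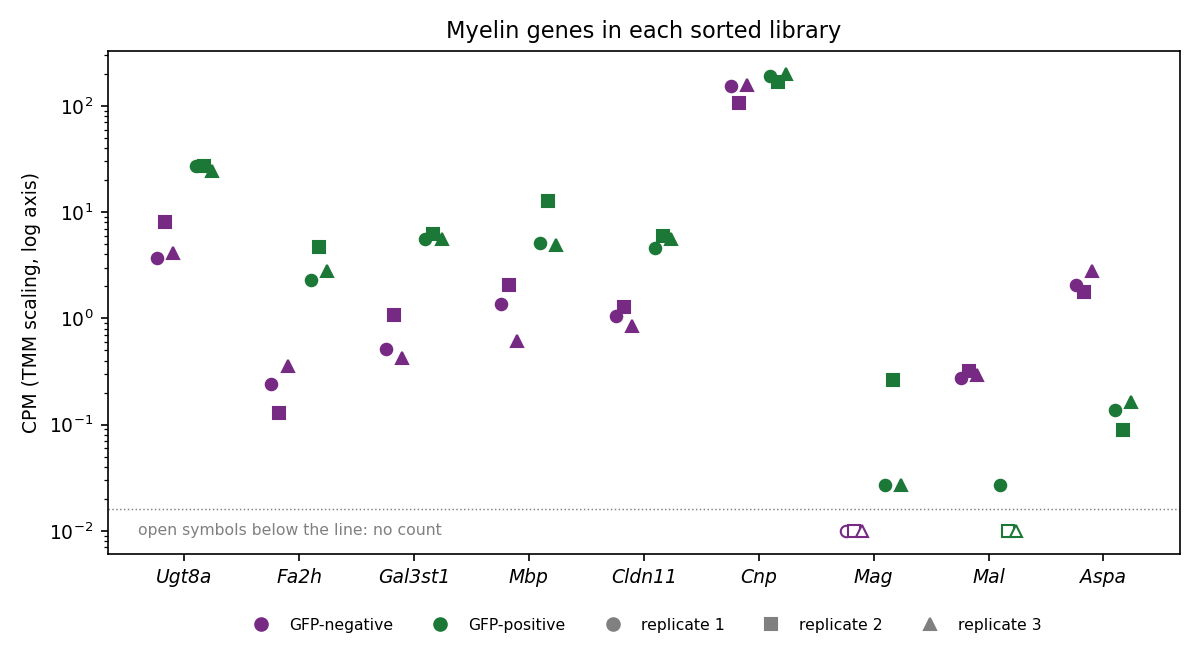
CPM, the count relative to the TMM-scaled total of its library (log axis), of the 9 myelin genes in each library, GFP-negative in purple and GFP-positive in green, with a symbol for each replicate; open symbols mark libraries with no count. Green lies above purple for 7 genes and below it for Mal and Aspa, and replicate 2 stands above the other GFP-positive libraries for Mbp, Fa2h and Mag.

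Total counts per library lay between 31067850 and 45207335 counts. Pdgfra, the gene behind the sort, stood at 237, 205 and 245 CPM in GFP-positive replicates 1, 2 and 3 and at 8.04, 19.3 and 13.9 CPM in GFP-negative ones, in the direction of the labels. Of 10 precursor markers 9 were higher and 0 lower. Astrocyte markers summed to between 506 and 629 CPM in GFP-positive and between 3748 and 4648 CPM in GFP-negative libraries, with 11 of 11 tested markers lower. Of 8 microglial markers 7 stayed under 0.5 CPM in every library, and C1qa, C1qb and Trem2 had no count. Of 6 endothelial markers 3 were tested, with 1 lower and 0 higher, and Cldn5 had no count. Neuronal markers moved with the higher members, at a sum of 36.7 to 44.9 CPM in GFP-positive and 11.9 to 20.6 CPM in GFP-negative libraries. Of 5 tested, 3 were higher and 0 lower, Slc17a6 had no count, and their part in the results was not tested. In bulk RNA, fewer cells of a type and less RNA per cell cannot be told apart.

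The 3 enzymes that make myelin galactolipids were all higher in GFP-positive cells. Ugt8a encodes the galactosyltransferase that turns ceramide into galactosylceramide. It stood at 27.1, 27.2 and 24.6 CPM in GFP-positive replicates 1, 2 and 3 and at 3.73, 8.03 and 4.15 CPM in GFP-negative ones. The GFP-positive libraries were alike, and the GFP-negative library of replicate 2 was the highest of its group, yet far below any GFP-positive one. The log2 fold change was 2.31 (SE 0.26, edgeR adjusted p = 0.000164). Gal3st1 encodes the sulfotransferase that makes sulfatide from galactosylceramide. Its values were 5.58, 6.20 and 5.63 CPM in the GFP-positive libraries and 0.516, 1.08 and 0.421 CPM in the GFP-negative ones, with the same GFP-negative library on top. Its log2 fold change was 3.10 (SE 0.32, edgeR adjusted p = 0.000102).

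Fa2h encodes the hydroxylase that adds the hydroxyl group found on the fatty acid of many myelin galactolipids. It had the largest log2 fold change of the tested members, 3.74 (SE 0.43, edgeR adjusted p = 0.00019). GFP-negative libraries held only 8, 4 and 11 counts of Fa2h in replicates 1, 2 and 3, and GFP-positive libraries 84, 214 and 103. In CPM these were 0.243, 0.127 and 0.356 against 2.29, 4.72 and 2.80, so replicate 2 was the lowest GFP-negative library and the highest GFP-positive one. All 3 enzymes were higher in each of the 3 same-numbered pairs.

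Of the structural proteins, Mbp and Cldn11 rose and stayed at low levels. Mbp encodes the basic protein that zips together the inner faces of the myelin membrane. Its GFP-positive libraries stood at 5.12, 12.7 and 4.90 CPM in replicates 1, 2 and 3, and its GFP-negative libraries at 1.36, 2.04 and 0.616 CPM. Replicate 2 was the highest library in both groups. The log2 fold change was 2.50 (SE 0.50, edgeR adjusted p = 0.00336) and moved to 1.91 (adjusted p = 0.00879) without GFP-positive replicate 2. Cldn11 encodes the claudin that forms tight junctions between the layers of the myelin sheath. It stood at 4.55, 5.96 and 5.63 CPM in the GFP-positive libraries and at 1.06, 1.27 and 0.842 CPM in the GFP-negative ones, and no library stood apart. Its log2 fold change was 2.34 (SE 0.22, edgeR adjusted p = 6.38e-05).

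Cnp was abundant in both fractions. The gene encodes a cyclic nucleotide phosphodiesterase of the cytoplasm-rich parts of the myelin sheath. Its values were 192, 169 and 202 CPM in GFP-positive replicates 1, 2 and 3 and 153, 107 and 158 CPM in GFP-negative ones. Replicate 2 was the lowest library in both groups, and the gap between the lowest GFP-positive and the highest GFP-negative library was small. The log2 fold change was 0.43 (SE 0.14, edgeR adjusted p = 0.0319), the smallest among the tested members. The call was lost without GFP-positive replicate 1 (adjusted p = 0.0814), without GFP-positive replicate 3 (0.1), without replicate 1 (0.0985) and without replicate 3 (0.0764). Without GFP-negative replicate 2 the log2 fold change was 0.28 (0.0118). Cnp also shares 154 exonic bases with Dnajc7 on the opposite strand in GENCODE M21. Without a stated strand setting, reads from these bases may be miscounted for Cnp, in a direction that is not known.

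Mag, whose product sits on the innermost myelin layer and faces the axon, was barely detected. Replicates 1, 2 and 3 had 1, 12 and 1 counts in the GFP-positive group and none in the GFP-negative group. A count of 0 in the GFP-negative group allows up to 0.0315 CPM, taken as 3 counts over the group. Mag stood at 0.118 CPM over the GFP-positive group (exact 95% Poisson interval 0.0644 to 0.198 CPM), which is 3.74-fold above that floor. The exact 95% lower limit of the ratio between the groups was 2.66, and it covers counting error only. This rests on replicate 2, since the other GFP-positive libraries had 1 count each. In a fit of all genes without the filter, Mag did not pass the threshold (edgeR adjusted p = 0.0735).

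Mal and Aspa went the other way. Mal encodes a small raft protein that carries cargo to the myelin membrane. It had 9, 10 and 9 counts in GFP-negative replicates 1, 2 and 3 and 1, 0 and 0 in GFP-positive ones. Over the groups this was 28 counts against 1, a ratio of 34.9 with an exact 95% interval of 5.77 to 1428 that covers counting error only. Without the filter Mal was called lower in GFP-positive cells (log2 fold change -4.62, edgeR adjusted p = 0.00456).

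Aspa encodes aspartoacylase, which splits N-acetylaspartate into aspartate and the acetate that feeds lipid synthesis. It stood at 0.136, 0.0883 and 0.163 CPM in GFP-positive replicates 1, 2 and 3 and at 2.06, 1.78 and 2.79 CPM in GFP-negative ones, or 15 counts against 210. Its log2 fold change was -4.08 (SE 0.36, edgeR adjusted p = 4.90e-05), the largest drop among the tested members. The astrocyte markers, given above, fell in the same direction, and so did the Schwann cell markers Dhh (-4.12) and Cdh19 (-3.08). The Schwann list summed to between 50.2 and 64.5 CPM in GFP-positive and between 59.4 and 101 CPM in GFP-negative libraries. Of its 6 tested genes 3 were lower and 0 higher, and Foxd3 had no count. The part of these cell types in the Mal and Aspa results was not tested.

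Absolute levels were compared between genes per kilobase of the longest coding transcript. In GFP-positive cells Cnp led with 79.5 ± 7.18 CPM per kb (SD, n = 3), followed by Ugt8a with 6.98 ± 0.39, Gal3st1 with 3.09 ± 0.18, Cldn11 with 2.88 ± 0.39, Mbp with 1.58 ± 0.92 and Fa2h with 1.31 ± 0.52. Aspa followed with 0.074 CPM per kb, Mag with 0.0437 and Mal with 0.00327. The single libraries of Gal3st1 and Cldn11 overlapped, as did those of Cldn11 and Mbp, of Mbp and Fa2h, and of Aspa and Mag. Cldn11 was above Mbp within each GFP-positive library, at 2.43 against 1.07, 3.19 against 2.64 and 3.01 against 1.02 CPM per kb in replicates 1, 2 and 3, while the order of each of the other 3 pairs changed between libraries. The place of Mbp depends on the transcript length used, since its longest coding transcript has 4797 bases and its median one 1947. With median coding transcripts for all genes, Mbp stood at 3.88 CPM per kb in GFP-positive cells, above Gal3st1 with 3.32 and Cldn11 with 2.88, and at 0.688 in GFP-negative cells, above Cldn11 with 0.567. The GFP-positive libraries of Mbp were then at 2.63, 6.51 and 2.51 CPM per kb, of which only replicate 2 exceeded Gal3st1.

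Most of the 9 genes lay below the median gene. The median of 13030 tested genes with a length was 8.63 CPM per kb in GFP-positive cells, and 8 of the 9 members lay below it. Cnp stood at percentile 95.7 of these genes, Ugt8a at 44.7, Gal3st1 at 29.0, Cldn11 at 27.9, Mbp at 21.2 and Fa2h at 19.6. With median coding transcripts Mbp was at percentile 31.2. Per kilobase of the longest transcript, Mbp reached 3.08%, 8.83% and 2.85% of the Pdgfra level in GFP-positive replicates 1, 2 and 3, and 7.27%, 20.8% and 6.73% with median transcripts. Ugt8a reached 20.7%, 24.2% and 18.2% with the longest. In GFP-negative cells the order was Cnp with 59.1 CPM per kb, Ugt8a with 1.41, Aspa with 1.27, Cldn11 with 0.567, Gal3st1 with 0.358, Mbp with 0.279, Mal with 0.106 and Fa2h with 0.0972, with no count for Mag. There the libraries of Ugt8a and Aspa overlapped, as did those of Cldn11 and Gal3st1, of Gal3st1 and Mbp, and of Mal and Fa2h.

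**Figure D2:**
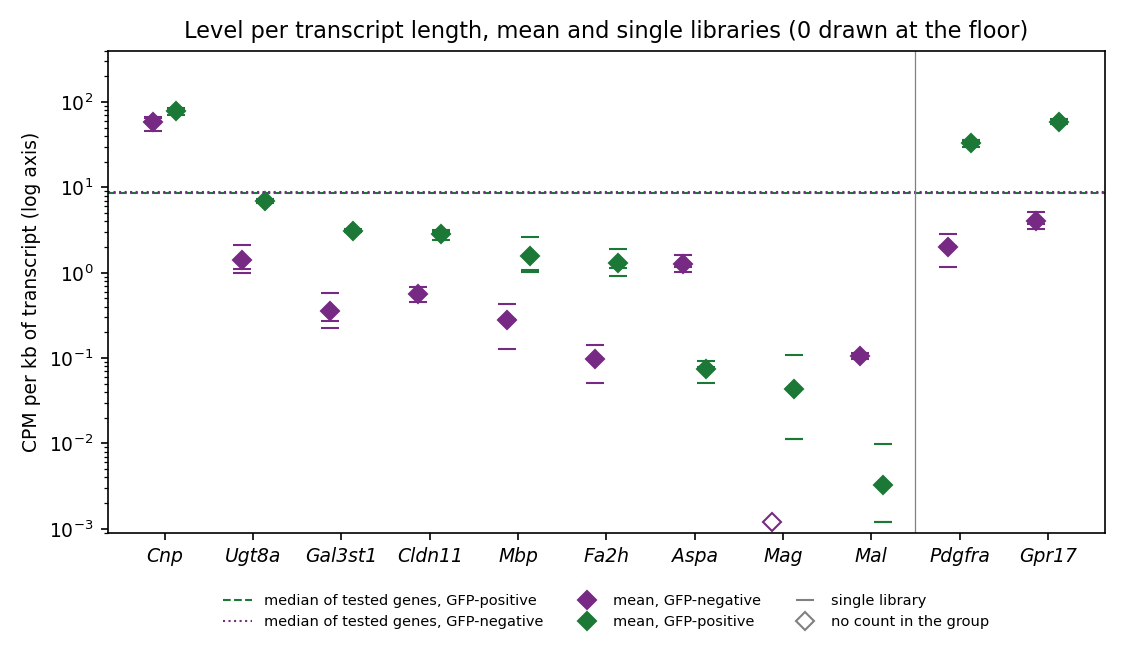
CPM per kilobase of the longest coding transcript (log axis) for the 9 myelin genes and, right of the line, Pdgfra and Gpr17; diamonds are means, dashes are single libraries, and horizontal lines are the medians of tested genes. Of the 9 myelin genes only Cnp lies above the medians, and Mbp at 1.58 CPM per kb lies below Ugt8a at 6.98 in GFP-positive cells.

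Most listed genes of later stages were nearly silent in both fractions. Of 12 markers of mature oligodendrocytes, 9 stayed under 0.5 CPM in every library. Mog, a protein of the outer myelin surface, had 4 counts in the GFP-positive and 3 in the GFP-negative group.

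The members also differed in how they varied between the GFP-positive libraries. Replicate 2 exceeded the mean of replicates 1 and 3 by a ratio of 2.53 for Mbp, 1.86 for Fa2h and 9.73 for Mag, the last from 12 counts. The ratio was 1.17 for Cldn11, 1.11 for Gal3st1, 1.05 for Ugt8a, 0.858 for Cnp and 0.59 for Aspa. Replicate 2 was the highest GFP-positive library for 6 of the 9 members, against 36.6% of tested genes, and a ratio of at least 2 was seen in 2.02% of tested genes. Of 28 listed regulators of myelin genes 2 reached a ratio of 2, the transcription factors Sox10 and Myrf, with 2.21 and 2.30, and they are named after their values were seen. Pdgfra, with 0.849, and Gpr17, a receptor of committed precursors, with 1.13, did not share this. The part of Sox10 and Myrf in this spread was not tested.

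**Figure D3:**
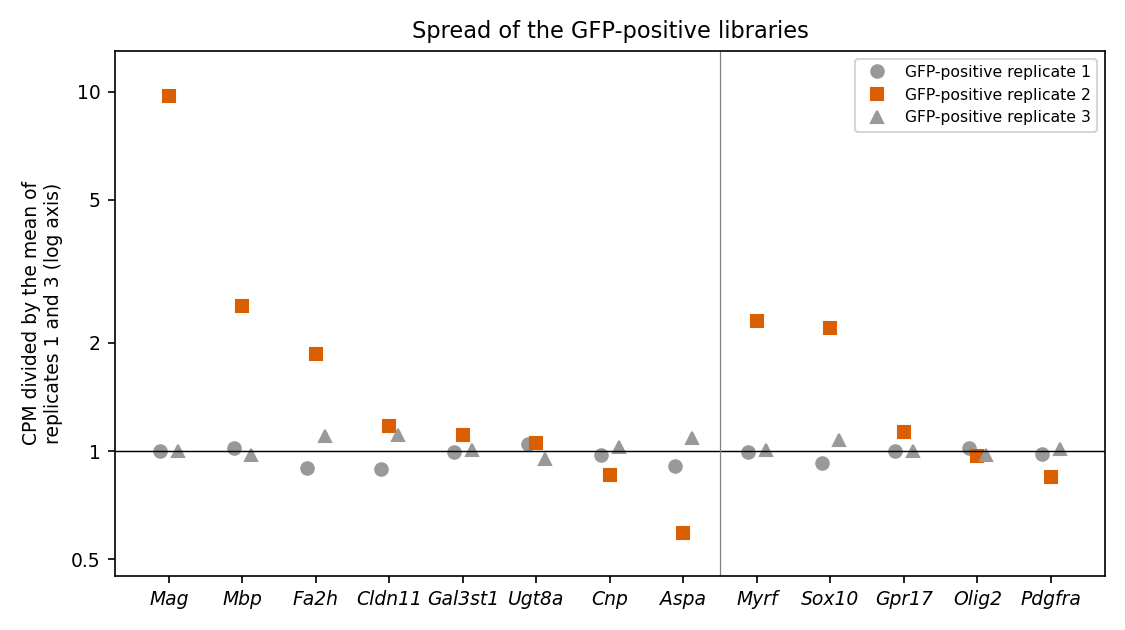
CPM of each GFP-positive library divided by the mean of replicates 1 and 3 (log axis) for 8 myelin genes and, right of the line, 5 lineage genes; Mal is left out for its 1 count. Replicate 2 (orange) stands at 9.73 for Mag, 2.53 for Mbp, 1.86 for Fa2h, 2.30 for Myrf and 2.21 for Sox10, and near 1 for Ugt8a, Gal3st1 and Gpr17.

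In the GFP-negative group, replicate 2 exceeded the mean of replicates 1 and 3 by a ratio of 2.31 for Gal3st1, 2.06 for Mbp and 2.04 for Ugt8a, and of 0.426 for Fa2h. Over the 10 precursor markers the same ratio was above 1 for 8 and below 1 for 2, with a median of 1.34 and a range from 0.774 to 4.27, the last for Sox10. Their sum was lowest in replicate 2, at 5571 CPM against 5805 and 5774 CPM in replicates 1 and 3. The largest part of that sum was Ptprz1, at 3277, 2928 and 3474 CPM in GFP-negative replicates 1, 2 and 3. Ptprz1 was not called between the groups (log2 fold change -0.03). The share of all tested genes with a ratio above 1 was not counted. Replicate 2 was the highest GFP-negative library for 5 of the 9 members, against 37.7% of tested genes. Without it the log2 fold changes were 2.75 for Ugt8a, 3.63 for Gal3st1 and 2.94 for Mbp. These are larger than with all libraries. The part of precursor RNA in the GFP-negative fraction was not tested.

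The regulators of myelin genes moved mostly upward. Of 28 listed regulators, other than the members, 18 were higher and 4 lower, and the median was 0.45 on the log2 scale. Among all tested genes, 26.1% were called higher and 29.2% lower. The lower count was 2 without replicate 3. Sox10 stood at 39.4, 93.6 and 45.4 CPM in GFP-positive replicates 1, 2 and 3. Myrf, which mature oligodendrocytes need to keep their myelin genes on, stood at 4.99, 11.5 and 5.03 CPM in the GFP-positive libraries and 1.70, 1.88 and 1.72 CPM in the GFP-negative ones. It was called higher, by 2.03 on the log2 scale (SE 0.35, edgeR adjusted p = 0.00158). Replicate 2 was its highest GFP-positive library, as for Mbp. Gpr17 was higher by 3.85. The repressors Hes1 and Hes5, which hold back differentiation, had log2 fold changes of -3.48 and -2.85. Not all such factors in the list fell, since Id2 was higher by 1.86 and Id4, at 0.19, was not called.

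The sequences just upstream of 4 members are shown because Sox10, Myrf and basic helix-loop-helix factors such as Olig2 act on myelin genes through short DNA motifs. They were taken from RefSeq's promoter table (build GRCm38.p6), and each spans 250 bases that end just before the transcription start. Windows of 7 of the 9 members were used here, and none of Mbp or Fa2h. Cnp lies at chr11:100574689-100574938 on the plus strand, Mag, at the first of 3 listed starts, at chr7:30914864-30915113 on the minus strand, Ugt8a at chr3:125938653-125938902 on the minus strand and Aspa at chr11:73324638-73324887 on the minus strand. Capitals mark matches, on either strand, to a Sox motif (ACAAAG), the Myrf motif (CTGGCAC or CTGGTAC), an E-box (CANNTG) or a GC box (GGGCGG).
Cnp: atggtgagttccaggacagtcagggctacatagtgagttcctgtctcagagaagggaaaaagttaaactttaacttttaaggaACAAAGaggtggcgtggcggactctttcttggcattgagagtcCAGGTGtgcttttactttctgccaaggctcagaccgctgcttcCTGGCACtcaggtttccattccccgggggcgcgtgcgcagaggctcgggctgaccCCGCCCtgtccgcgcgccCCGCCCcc
Mag: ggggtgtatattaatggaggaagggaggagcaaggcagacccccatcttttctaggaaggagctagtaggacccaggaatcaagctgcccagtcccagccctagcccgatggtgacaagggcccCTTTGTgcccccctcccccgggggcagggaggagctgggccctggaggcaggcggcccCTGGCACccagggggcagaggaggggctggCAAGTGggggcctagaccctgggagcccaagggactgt
Ugt8a: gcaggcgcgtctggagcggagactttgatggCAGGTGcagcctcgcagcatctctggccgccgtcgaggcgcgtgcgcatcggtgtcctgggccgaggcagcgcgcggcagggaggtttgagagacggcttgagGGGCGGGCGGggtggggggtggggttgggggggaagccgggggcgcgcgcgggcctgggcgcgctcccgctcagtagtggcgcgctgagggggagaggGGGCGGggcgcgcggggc
Aspa: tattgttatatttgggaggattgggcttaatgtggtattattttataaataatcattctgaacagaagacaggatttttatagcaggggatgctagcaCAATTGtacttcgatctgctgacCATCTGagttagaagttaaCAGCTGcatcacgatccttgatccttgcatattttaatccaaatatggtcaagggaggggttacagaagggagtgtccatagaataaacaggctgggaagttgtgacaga

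Cnp and Mag each held 1 match to the Sox motif, 1 to CTGGCAC and 1 E-box, and Cnp also 2 GC boxes. Ugt8a held 3 GC boxes, of which 2 overlap, and 1 E-box, with a GC content of 76.8%. Aspa held 3 E-boxes and no match to the other motifs, with a GC content of 38.8%. The first listed windows of Cldn11, Gal3st1 and Mal held none of these letters. Over 32851 windows of the same length, 16.5% held the Sox motif, 4.19% CTGGCAC, 1.83% CTGGTAC, 66.2% an E-box and 32.7% a GC box. Such matches describe the letters and are not shown to be bound in these cells. In the windows shown, Cnp, high in both fractions, and Mag, at 14 counts in all, carried the same Sox and Myrf letters. Another of the 3 listed Mag starts held E-boxes and no match to the Sox or Myrf letters.

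Around the 3 galactolipid enzymes, the wider sphingolipid pathway had more lower than higher calls. Of 27 tested genes for sphingolipid, galactolipid and very long chain fatty acid enzymes, 4 were higher and 11 lower, and the median was -0.10 on the log2 scale. Among all tested genes, 26.1% were called higher and 29.2% lower. The count of higher genes was 7 without GFP-negative replicate 2 and without replicate 2. Degs1, the desaturase that completes ceramide, averaged 21.8 ± 0.62 CPM in the positive fraction and 44.4 ± 1.29 CPM in the negative one (SD, n = 3), a difference of -1.02 on the log2 scale. Elovl5, a fatty acid elongase, had a value of -0.82 and Psap, the precursor of the saposins that help break sphingolipids down, one of -1.11. On the higher side, B4galnt1, which makes complex gangliosides, averaged 41.2 ± 1.08 CPM in the positive and 13.6 ± 3.33 CPM in the negative fraction (SD, n = 3), a difference of 1.60 on the log2 scale.

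Genes around Aspa went both ways, with more lower than higher calls. Of 8 genes for N-acetylaspartate and acetate handling, 5 were lower, 1, the citrate-cleaving enzyme gene Acly, was higher (0.21) and 2 were not called, with a median of -0.52. Over all tested genes 29.2% were called lower. The higher call was lost without GFP-positive replicate 3, without replicate 1 and without replicate 3, and 3 were lower without replicate 3. Slc13a3, a carrier that takes up N-acetylaspartate, stood at 0.191, 0.53 and 0.653 CPM in GFP-positive replicates 1, 2 and 3 and at 2.91, 3.76 and 5.54 CPM in GFP-negative ones. The groups did not overlap, and the log2 fold change was -3.13 (SE 0.42, edgeR adjusted p = 0.00044). Acss2, which activates acetate, and Rimklb, which joins N-acetylaspartate to glutamate, had values of -1.25 and -0.48. Nat8l, which makes N-acetylaspartate, was 1 of the 2 genes not called, at 0.08.

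The other listed myelin and mature oligodendrocyte genes went both ways. Of 19 tested, 5 were higher and 8 lower, with a median of -0.22, and 11 of the 30 listed did not pass the filter. Among all tested genes, 26.1% were called higher and 29.2% lower. Trf, the iron carrier transferrin, had a log2 fold change of -4.12 and Car2, a carbonic anhydrase, one of -3.27, with mean levels of 2.32 ± 0.57 CPM in the positive and 22.6 ± 1.67 CPM in the negative fraction (SD, n = 3). Tppp, which bundles microtubules in oligodendrocytes, was higher by 1.32.

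Genes that carry and translate Mbp messenger RNA had log2 fold changes in either direction. Of 15 tested, 5 were higher and 6 lower, with a median of -0.02, beside 26.1% higher and 29.2% lower among all tested genes. The higher count was 3 without GFP-positive replicate 3 or without replicate 1, and 2 without replicate 3, and the lower count was 3 without replicate 1 or without replicate 3. Kif1b, a kinesin that carries Mbp messenger RNA into processes, had a log2 fold change of -0.62, and the RNA-binding proteins Hnrnpr and Sfpq had values of 0.41 and 0.32.

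**Figure D4:**
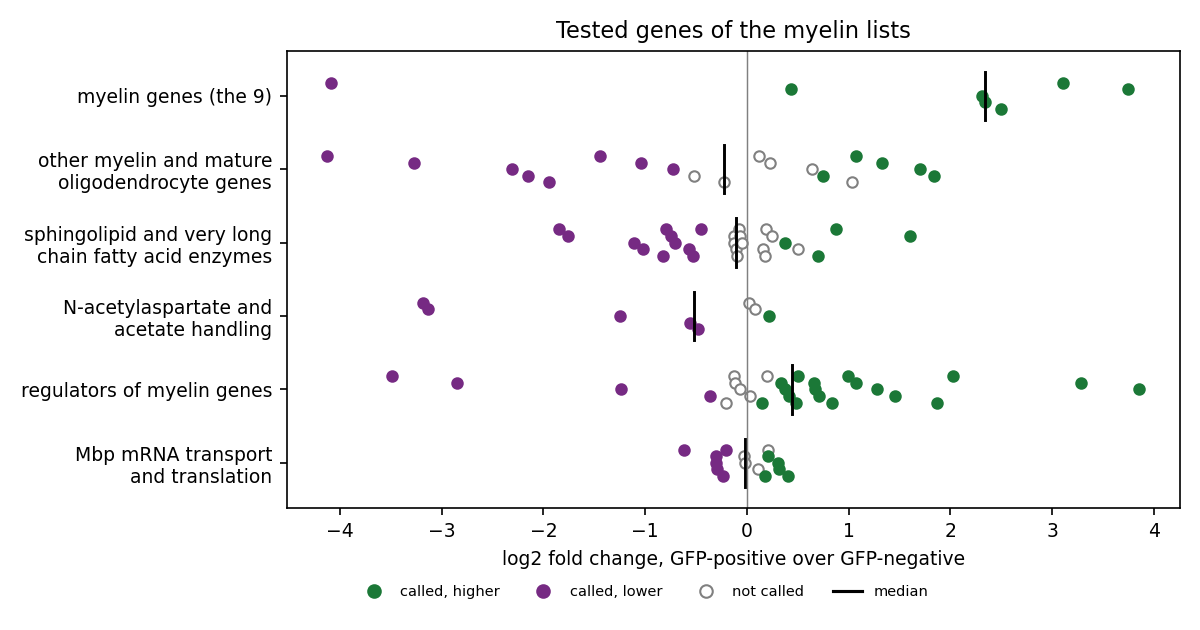
Log2 fold change, GFP-positive over GFP-negative, of every tested gene in the 9 myelin genes and the 5 related lists; filled points were called (green higher, purple lower), open points were not, and black bars are medians. The myelin genes have a median of 2.34, the regulators of 0.45, and the other 4 lists lie between -0.52 and -0.02.

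The 5 genes nearest to Mbp in their pattern over the 6 libraries were Mybpc1, Adamts16, Sema3d, Mir124a-1hg and Mmp24. Nearness was the root mean square difference of log2 CPM after centring each gene on its own mean, searched over 11977 genes, and it was 0.25, 0.38, 0.38, 0.43 and 0.43 on the log2 scale. Mybpc1 stood at 98.1 CPM in GFP-positive replicate 2 and at 25.0 CPM in GFP-negative replicate 2, the highest library in each group, as for Mbp. Since the 5 genes were chosen for their likeness to Mbp, this is no separate result.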

How the data were processed

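The deposited table holds raw read counts per gene, not normalized, per the file headers. Per the submitters' processing notes the authors' reads went through TopHat2 2.1.1 and featureCounts 2.0.0 on mm39. Per the labels, library preparation used a SMART-Seq Stranded kit. For annotation and strand setting, no value is given in the sources used here. The 9 members and all lists were chosen with earlier results of these data known.

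Counts were tested with edgeR 4.0.16 (R 4.3.3): TMM scaling, filterByExpr, quasi-likelihood F test without a block and Benjamini-Hochberg adjustment over all tested genes. SE was taken as the size of the log2 fold change over the root of its F value. CPM holds PCR copies, so intervals (95%, exact) and the floor of 3 counts cover counting error only. Transcript lengths came from GENCODE M21 (GRCm38), used for lengths and overlaps alone. Same-numbered libraries deviated together from their group means (correlations 0.218, 0.355 and 0.159, limit 0.1), so the numbers were taken to pair the samples. GFP-positive replicate 3 and GFP-negative replicate 1 also passed that limit, at 0.128, and the other differently numbered pairs did not. The check therefore does not single out the same-numbered pairs alone, and the main fit does not use the pairing. Named genes were the members, Pdgfra, the 3 smallest p and the called gene of opposite direction with the smallest p in each related list, and the 5 genes nearest to Mbp among genes averaging 1 or more in log2 CPM (prior count 2). Outside this rule, Sox10, Myrf, Nat8l, Mog, Dhh, Cdh19, Ptprz1, Id2, Id4 and the markers with no count were named after their values were seen. Alternatives were other scalings and filters, DESeq2 1.42.0, a replicate block, leaving out libraries and, added after seeing the data, median transcript lengths. Some listed genes are not reported here.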

Additional observations from a re-analysis of the deposited data

How the results depend on the processing

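With the replicate block, 6 members were higher and 1 lower, as without it, and it changed no call of a member. RLE and upper-quartile scaling and a filter of 1 CPM in 3 libraries gave the same counts of 6 and 1. Without the filter on low counts, with DESeq2, and with the block and no filter together (added after seeing the data), 2 members were lower, Mal being the second; with the last, 7 sphingolipid genes were higher. Leaving out a library or a number gave 5 to 6 higher and 1 to 2 lower members, with log2 fold changes of 2.09 to 2.75 for Ugt8a, 3.09 to 4.22 for Fa2h, 2.87 to 3.63 for Gal3st1, 1.91 to 2.94 for Mbp, 2.18 to 2.50 for Cldn11, 0.28 to 0.54 for Cnp and -4.28 to -3.84 for Aspa; all of these stayed called except Cnp, in 4 of 9 such fits. The same fits gave 2450 to 4169 genes higher over the whole table, 4 to 7 sphingolipid genes higher, 0 to 1 higher and 3 to 5 lower for N-acetylaspartate and acetate, 2 to 4 lower regulators, and 2 to 6 higher and 3 to 6 lower for Mbp messenger RNA transport. The cause of these shifts was not tested. Depth limits Mag and Mal, which had 14 and 29 counts over all libraries.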
